A study of Mus musculus with 155 samples.

Results

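The genes described here are 10 targets of the hypoxia-inducible factors (HIFs), namely Vegfa, Ddit4, Bhlhe40, Ndufa4l2, Egln3, Ankrd37, Bnip3, Adm, Kdm3a and P4ha1, out of 55471 gene identifiers in the count tables. They were chosen as known HIF targets, several of them because their RNA was raised in mouse embryonic stem cells (ESCs) that express the histone mutant H3.3K27M. The comparison of H3.3K27M with WT-H3.3 in ESCs therefore selected the genes, and its values are given as a description with no test. The tested comparisons are those that the choice did not use, in the other mutant, the inhibitor, time in the control line, and the differentiated cells. Those within ESCs, and those of differentiated cells against ESCs, share the WT-H3.3 ESC libraries of the choice.

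All cells derived from the KH2 mouse ESC line, in which a doxycycline (Dox) inducible extra copy of histone H3.3, tagged with SNAP and HA, was integrated at 1 site. The copy was wild type (WT-H3.3), carried methionine in place of lysine 27 (H3.3K27M, the mutation of diffuse midline glioma, which blocks the methyltransferase complex PRC2) or carried leucine there (H3.3K27L). RNA was measured in ESCs, kept with LIF and the 2i inhibitors on gelatin, at 4, 8, 24 and 72 h of Dox with 2 replicates grown weeks apart for each of the 3 lines and for WT-H3.3 ESCs given GSK343, an inhibitor of PRC2 (32 libraries), in retinoic acid (RA) treated cells of the 3 lines at 24 and 72 h of Dox (6 libraries) and in oligodendrocyte progenitor cells (OPCs) derived from the WT-H3.3 and H3.3K27M lines at 24 and 72 h of Dox (4 libraries). Every control thus carried the tagged WT-H3.3 copy and received Dox, and no group was without Dox. Each line is represented by the cells of 1 integration, there was 1 library for each line and time after RA, and the pair of libraries of an OPC line differ in Dox time, so that p-values of those stages measure the spread between such libraries. The 72 h OPC libraries are replicate 1 by their sample titles and replicate 2 by the headings of the counts. The 24 h ones are replicate 2 in both. Whether the pair of an OPC line came from separate differentiations is therefore not settled. The length of RA treatment of the 24 h libraries was not given in the sources used here.

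Totals ranged from 68378 to 21161392 counts in ESCs, 2239137 to 22269533 in RA-treated cells and 7499258 to 12387113 in OPCs. The library at 68378 counts was the second H3.3K27L replicate at 72 h, and the next lowest ESC library had 1247934 counts. Levels are in CPM, counts scaled to a library of 1000000, which compare libraries within a gene and not genes with each other. The pluripotency factor Pou5f1 was at 351 to 844 CPM in ESCs and at most 5.36 CPM after differentiation. Of the other ESC markers, Sox2 was at 314 to 496 CPM in ESCs and still at 179 to 251 CPM in OPCs. Klf4 was at 204 to 570 CPM in ESCs and 50.2 to 207 CPM after RA. In OPCs Klf4 was at 89.9 to 97.4 CPM with WT-H3.3 and 5.33 to 6.74 CPM with H3.3K27M. A figure heading of the study calls the RA-treated cells neural progenitors. Pax6 was at 11.7 to 39.9 CPM in them and 0 to 3.75 CPM in ESCs. Nes was at 19.6 to 403 CPM and 25.3 to 91.0 CPM in turn. The RA-treated cells also carried markers of extraembryonic endoderm (6 of 6 detected, summing to 333 to 1585 CPM, against 0 to 16.4 CPM in ESCs). In OPCs Olig2 reached 256 to 927 CPM, whereas Sox10, a defining factor of the lineage, was at 0.133 to 3.14 CPM. The libraries also fell into 2 kinds by some genes that every cell uses, picked after their values were seen. Eef1a1, a translation elongation factor, was at 4314 to 8605 CPM in ESCs and 4318 to 4508 CPM in the 24 h RA libraries, but at 110 to 136 CPM in the 72 h RA libraries and 32.2 to 80.7 CPM in OPCs. The methods name a pair of library kits without assigning them, so Dox time after RA, and the step from ESCs to OPCs, cannot be told apart from the kind of library.

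HIFs are pairs of an oxygen-regulated alpha subunit (HIF-1α from Hif1a, HIF-2α from Epas1) and a stable partner (Arnt, Arnt2). With oxygen present, prolyl hydroxylases of the Egln family mark the alpha subunit for capture by the von Hippel-Lindau protein and destruction, and when oxygen or the hydroxylases fail the pair binds DNA at an ACGTG or GCGTG core and raises genes for blood vessel growth, glycolysis, mitochondrial remodelling, collagen processing and demethylation. The set covers these roles. Vegfa and Adm encode secreted vascular factors, Egln3 is a hydroxylase that feeds back on HIF, Ddit4 restrains mTORC1, Bhlhe40 is a transcriptional repressor, Ndufa4l2 and Bnip3 act at mitochondria, P4ha1 is the catalytic subunit of collagen prolyl 4-hydroxylase, Kdm3a is a histone H3 lysine 9 demethylase that itself needs oxygen, and Ankrd37 encodes an ankyrin-repeat protein.

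The letters that HIF binds were looked for upstream of the genes, since the members are grouped by this factor. RefSeq start sites on GRCm38.p6 were available for 8 of the 10 members (Bhlhe40 and Ndufa4l2 had no entry), and the windows below hold the 250 bases before the start, 5′ to 3′ on the strand of the gene, with every ACGTG or GCGTG, or its reverse complement CACGT or CACGC, in capitals. Overlapping matches are merged, so that a palindrome such as the one upstream of Bnip3 counts on both strands. They are shown, at the first start listed, for the 7 members outside chromosome 8 that have an entry, each of which was called in at least 1 comparison of differentiated cells.
Ddit4 (chr10:59951771-59952020, minus strand): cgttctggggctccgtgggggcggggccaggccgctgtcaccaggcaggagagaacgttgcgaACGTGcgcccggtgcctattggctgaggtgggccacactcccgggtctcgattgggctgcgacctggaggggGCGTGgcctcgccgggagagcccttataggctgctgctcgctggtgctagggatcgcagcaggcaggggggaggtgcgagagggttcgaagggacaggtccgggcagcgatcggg
Egln3 (chr12:54203875-54204124, minus strand): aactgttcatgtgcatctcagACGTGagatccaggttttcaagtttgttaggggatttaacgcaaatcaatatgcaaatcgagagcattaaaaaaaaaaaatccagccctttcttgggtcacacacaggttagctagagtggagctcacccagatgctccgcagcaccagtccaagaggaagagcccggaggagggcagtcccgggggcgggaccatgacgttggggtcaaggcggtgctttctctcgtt
Adm (chr7:110627407-110627656, plus strand): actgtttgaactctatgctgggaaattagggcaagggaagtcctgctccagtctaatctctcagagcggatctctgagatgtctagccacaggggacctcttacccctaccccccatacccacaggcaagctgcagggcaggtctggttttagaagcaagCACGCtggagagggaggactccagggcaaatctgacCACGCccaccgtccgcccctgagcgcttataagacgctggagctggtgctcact
P4ha1 (chr10:59323046-59323295, plus strand): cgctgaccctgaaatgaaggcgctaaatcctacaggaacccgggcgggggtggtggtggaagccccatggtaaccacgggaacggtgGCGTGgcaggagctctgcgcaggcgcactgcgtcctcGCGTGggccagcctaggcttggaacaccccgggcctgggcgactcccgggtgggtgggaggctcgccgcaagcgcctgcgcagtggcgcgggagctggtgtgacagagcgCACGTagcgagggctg
Bnip3 (chr7:138909507-138909756, minus strand): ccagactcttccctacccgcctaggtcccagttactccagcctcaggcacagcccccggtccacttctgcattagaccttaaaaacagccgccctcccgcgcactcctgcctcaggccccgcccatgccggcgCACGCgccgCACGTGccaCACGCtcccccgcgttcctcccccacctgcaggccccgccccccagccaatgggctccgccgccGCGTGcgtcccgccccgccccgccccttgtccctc
Kdm3a (chr6:71632918-71633167, minus strand): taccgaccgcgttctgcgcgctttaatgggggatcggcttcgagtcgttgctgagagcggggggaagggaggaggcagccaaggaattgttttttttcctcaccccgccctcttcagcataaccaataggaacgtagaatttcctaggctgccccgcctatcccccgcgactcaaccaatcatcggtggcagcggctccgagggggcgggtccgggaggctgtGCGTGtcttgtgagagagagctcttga
Vegfa (chr17:46032378-46032627, minus strand): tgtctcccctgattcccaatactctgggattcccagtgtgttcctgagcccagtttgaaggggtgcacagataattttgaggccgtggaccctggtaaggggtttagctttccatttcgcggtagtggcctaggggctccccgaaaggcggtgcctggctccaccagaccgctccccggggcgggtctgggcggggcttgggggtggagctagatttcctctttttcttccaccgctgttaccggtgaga
Each of the 8 members had a match in at least 1 of its windows, but Vegfa and Kdm3a have several starts and neither held one at all of them. Vegfa had none at the first start, shown above. Its matches lay only in the window of a second start (chr17:46025164-46025413), downstream of the first. Kdm3a held a match at 1 of its 3 starts. Over 32851 windows of the same length, 16.6% held ACGTG or its complement, 28.2% held GCGTG or its complement and 38.6% held either. These shares are per window, and a gene with several starts has several windows in which to hold a match. The matches lay 187 and 115 bases before the start of Ddit4, 229 before that of Egln3, 90 and 54 before that of Adm and 16 before that of P4ha1, the last beside 2 others farther upstream. A match is a run of letters and not a site shown to be bound.

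In ESCs, where the choice was made, the members stood higher with H3.3K27M than with WT-H3.3, chiefly from 8 h of Dox on. Chromosome 8, which holds Ankrd37, was left out of the fits. Averaged over the times, 5 of the 9 members fitted were more than 2-fold higher, against 0.542% of the 14012 genes fitted, and 8 of 9 had a log2 fold change above 0, against 49.1% of genes. The members' median log2 fold change was 1.04, and that of all genes was -0.0048. Both background shares are printed for scale only, since these values chose the members.

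Vegfa (ENSMUSG00000023951.17, chr17:46153942-46169326 in mm9, minus strand), the main growth factor for blood vessels, was at 14.1 and 18.8 CPM at 4 h of Dox with WT-H3.3, 18.3 and 25.2 at 8 h, 17.7 and 19.5 at 24 h, and 19.3 and 27.7 at 72 h. With H3.3K27M it was at 19.0 and 31.0 CPM at 4 h, 23.4 and 91.1 at 8 h, 33.0 and 64.4 at 24 h, and 46.7 and 48.6 at 72 h. Each H3.3K27M library was above both control libraries of its time except the first at 8 h, which lay between them. The log2 fold change was 1.10 ± 0.23 (SE). Adm, the precursor of the vasodilator adrenomedullin (chr7:117771175-117773331, plus strand), was barely detected in ESCs, with 26 counts in the 8 WT-H3.3 libraries and 64 in the 8 H3.3K27M libraries. The ratio of its summed CPM was 3.52, with a 95% exact interval of 2.20 to 5.79 that covers counting error only. Its fitted log2 fold change of 1.60 ± 0.57 came to 0.40 without the first H3.3K27M library at 4 h.

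Ddit4 (ENSMUSG00000020108.4, chr10:59412423-59414518, minus strand), which shuts down mTORC1 when oxygen or amino acids are short, differed most between replicates at 8 and 24 h. It stayed between 30.3 and 44.7 CPM in all 8 WT-H3.3 libraries. With H3.3K27M it was at 34.6 and 25.9 CPM at 4 h, 51.2 and 165 at 8 h, 82.7 and 198 at 24 h, and 82.0 and 90.3 at 72 h, for a log2 fold change of 1.17 ± 0.24 (SE). From 8 h on all 6 mutant libraries were above all controls, and at 4 h they were not. Bhlhe40 (chr6:108610623-108616919, plus strand) ran from 14.2 through a median of 25.2 to 29.7 CPM with WT-H3.3 and from 16.8 through 43.1 to 108 CPM with H3.3K27M, a log2 fold change of 1.04 ± 0.23. The same replicates were high in each of these genes: the second H3.3K27M libraries at 8 and 24 h gave 108 and 89.6 CPM of Bhlhe40, and the first gave 42.5 and 33.2 CPM. Bhlhe40 overlaps an opposite-strand transcript, 0610040F04Rik, and the strand setting of the counting was not given in the sources used here.

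The mitochondrial members and the hydroxylase were also higher with the mutant. Ndufa4l2 (chr10:126951995-126954208, plus strand), which lowers the activity of complex I in hypoxia, was at 2.89 to 8.76 CPM (median 4.45) with WT-H3.3 and 6.57 to 16.2 CPM (median 10.6) with H3.3K27M, with a log2 fold change of 1.16 ± 0.19 (SE). Both mutant libraries exceeded both controls at each of the 4 times. The 3′ end of Ndufa4l2 overlaps the opposite-strand gene Shmt2, so its counts are uncertain where strand was not used. Egln3 (chr12:55279968-55304847, minus strand) was at 4.94 to 14.2 CPM (median 8.32) and 10.2 to 22.4 CPM (median 13.7), a log2 fold change of 0.71 ± 0.22. Bnip3 (chr7:146082519-146101202, minus strand), which tags mitochondria for removal, was at 8.66 to 22.9 CPM (median 14.8) and 14.0 to 32.9 CPM (median 21.2), a log2 fold change of 0.61 ± 0.24.

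P4ha1, Ankrd37 and Kdm3a gave the 3 smallest values. P4ha1 (chr10:58786044-58836052, plus strand) was at 28.7 to 53.8 CPM (median 35.4) with WT-H3.3 and 32.4 to 79.0 CPM (median 57.5) with H3.3K27M, a log2 fold change of 0.55 ± 0.15 (SE). Kdm3a (chr6:71538968-71582899, minus strand) was the member with a negative value, -0.22 ± 0.10, at 278 to 437 CPM and 225 to 363 CPM. Ankrd37 (chr8:47082256-47085221, minus strand), with chromosome 8 put back into the fit, had a log2 fold change of 0.31 ± 0.22 and overlapping ranges of 5.35 to 13.1 and 6.37 to 16.6 CPM. It overlaps Ufsp2 and Lrp2bp on the opposite strand.

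**Figure D1:**
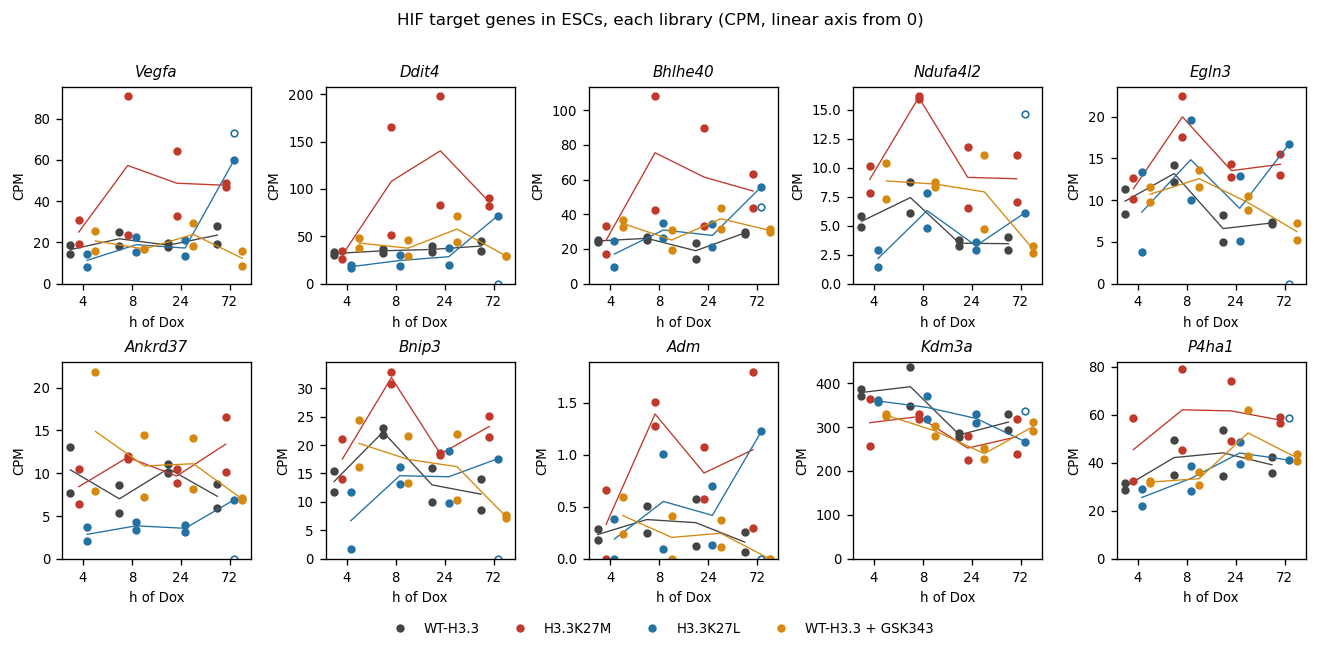
Each panel plots 1 gene in ESCs, with hours of Dox on the x axis and CPM on the y axis. Points are libraries, lines join the means of the 2 replicates of a line or treatment, and the open circle is the H3.3K27L library of 68378 counts, which the lines leave out. Vegfa, Ddit4, Bhlhe40 and Ndufa4l2 libraries of H3.3K27M lie above those of WT-H3.3 at 24 and 72 h.

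The distance from WT-H3.3 was larger at 24 and 72 h of Dox than at 4 h, in the values that chose the members and with no test. The median over members of each H3.3K27M library's log2 difference from WT-H3.3 of the same time was 0.125 and 0.351 at 4 h, 0.457 and 1.10 at 8 h, 0.81 and 1.10 at 24 h, and 1.05 and 0.923 at 72 h. The fitted median was 0.78 over 4 and 8 h and 1.22 over 24 and 72 h. From early to late times the members' median log2 fold change in the WT-H3.3 controls was -0.37. The part of the controls in the larger late values was not tested. Both H3.3K27M libraries were above both controls in 3 members at 4 h, against 12.8% of genes with at least 10 counts, in 7 at 8 h (9.54%), in 7 at 24 h (15.5%) and in 9 at 72 h (11.5%). Kdm3a was below both controls at 4 h (14.0%) and 8 h (10.9%). The same counts for H3.3K27L and GSK343 are given with those comparisons. All 4 late H3.3K27M libraries were above all 4 late controls in 6 members, Vegfa, Ddit4, Bhlhe40, Ndufa4l2, Egln3 and Bnip3 (1.27% of the genes fitted), and no member was apart in all libraries over all times (0.0143% of genes were, upward). Of the HIF subunits, Hif1a had a log2 fold change of 0.04 ± 0.13 (SE), Epas1 -0.45 ± 0.18, Arnt 0.25 ± 0.11, Hif3a 0.31 ± 0.20 and Arnt2 0.43 ± 0.25, and the 7 sensing and degradation genes fitted had a median of -0.08. Egln1, also on that list, lies on chromosome 8. With that chromosome kept it had 0.26 ± 0.15 over all times and 0.46 ± 0.21 over 24 and 72 h, and its libraries overlapped the controls. Of other targets, 20 of 20 glycolytic genes had a positive log2 fold change with a median of 0.33, as did 22 of 28 further targets with a median of 0.16. Genes of the integrated stress response, which also drives Ddit4 and Vegfa, had positive values in 12 of 12 with a median of 0.29.

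The gene pattern nearest to the members over 31 ESC libraries, all but the one of 68378 counts, was that of Ndrg1, itself a HIF target, with a Pearson correlation of 0.869 to the mean of the members' standardised levels among 10230 genes. Ier3 (0.86), Stc2 (0.821), A2m (0.796), Ccng2 (0.792), Igfbp2 (0.792), Igfbp4 (0.786), Mipol1 (0.777), Tpi1 (0.766) and Ddit3 (0.764) followed. Of these 10 genes, 4 were on the lists of other HIF targets and Ddit3, a stress-response factor, was on the stress list. Within the set, each member was set against the mean of the others: Vegfa correlated at 0.849, Ddit4 at 0.816, Bnip3 at 0.813, Ndufa4l2 at 0.81 and Bhlhe40 at 0.802, whereas P4ha1 stood at 0.494 and Kdm3a at -0.321. These are descriptions over libraries that share lines, times and replicate batches, including those that chose the members.

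H3.3K27L, tested over the 4 times, passed the test for no member. None of the 9 fitted members was called (Benjamini-Hochberg adjusted p under 0.05 over all genes and a change over 2-fold), against 3.43% of the 14012 genes (88 higher and 393 lower), none had an unadjusted p under 0.05, and DESeq2 called none either. The comparison shares its WT-H3.3 libraries with the one that chose the members. The members' median log2 fold change was -0.045, that of all genes -0.0045. Vegfa was at 8.05 and 14.5 CPM at 4 h, 15.2 and 22.5 at 8 h and 13.2 and 21.3 at 24 h, within or below the range of the controls at those times except for the second library at 24 h. At 72 h the first replicate gave 59.8 CPM of Vegfa, and the library of 68378 counts gave 73.1 CPM, from 5 counts. Ddit4 followed the same course, at 16.1 to 37.1 CPM over the first 6 libraries and 71.6 CPM in the first at 72 h, with 0 counts in the shallow one, which allows up to 43.9 CPM.

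Split by time, the 9 fitted members in H3.3K27L had a median log2 fold change of -0.28 at 4 and 8 h, with 1 of 9 above 0, against 7179 of 14012 genes. At 24 and 72 h their median was 0.43, with 9 of 9 above 0, against 6712 of 14012 genes. No member was called in either window (2.35% of genes early and 0.507% late). The members of lowest p were Ndufa4l2 early (-0.76 ± 0.29, SE, adjusted p = 0.17), Egln3 late (0.81 ± 0.34, adjusted p = 0.35), Bnip3 early (-0.80 ± 0.35, adjusted p = 0.25) and Bhlhe40 late (0.75 ± 0.34, adjusted p = 0.43). The difference of the late and early effects, fitted as 1 contrast after the values were seen, called no member and no gene (0% by edgeR). Of the 9 members 3 had an unadjusted p under 0.05, as 177 of 14012 genes had. The members' median was 0.88, with 9 of 9 above 0, and that of all genes was -0.02, with 6538 of 14012 above 0. This contrast subtracts the change from early to late in the WT-H3.3 controls, where the members' median was -0.37. Those control libraries also served in the choice of the members, and their part in the 0.88 was not tested. Ndufa4l2 had the lowest p among members (1.19 ± 0.43, unadjusted p = 0.0117). Both H3.3K27L libraries were below both controls in 5 of the 10 members at 4 h (22.5% of genes with at least 10 counts) and in 3 at 8 h (16.2%). They were below in 1 at 24 h (19.0%) and 0 at 72 h (32.4%). Both were above in 0, 0, 1 and 3 members in turn (20.6%, 9.96%, 13.6% and 9.02%). At 72 h these values rest on 1 library of usable depth.

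Ankrd37, outside these fits, was lower with H3.3K27L. Its 8 libraries ran from 0 through a median of 3.55 to 6.88 CPM, against 5.35 through 8.69 to 13.1 CPM with WT-H3.3, and the 7 libraries other than the shallow one gave 2.05 to 6.88 CPM. With chromosome 8 kept, the log2 fold change was -1.07 ± 0.25 (SE, adjusted p = 0.00816), and 3.5% of genes were called in that fit. At 4 and 8 h all 4 mutant libraries lay below all 4 controls (-1.33 ± 0.33, adjusted p = 0.0265). The 807 chromosome 8 genes tested had a median log2 fold change of -0.21 in this comparison, against 0.0083 for the other genes, and the part of that shift in the value was not tested. The study leaves the chromosome out because of a potential duplication in its clones.

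GSK343, which inhibits PRC2 without a mutant histone, called no member and no gene (0% of 14012 genes), with 678 genes at an unadjusted p under 0.05 and no call by DESeq2 among members. Vegfa ran from 8.64 through a median of 16.8 to 29.6 CPM with the inhibitor and from 14.1 through 19.1 to 27.7 CPM without, a log2 fold change of -0.19 ± 0.24 (SE). Ddit4 had a log2 fold change of 0.14 ± 0.24, Bhlhe40 0.35 ± 0.23 and Egln3 0.05 ± 0.22, and the ranges of all 9 members overlapped over all times. By time, both GSK343 libraries were above both controls in 5 of the 10 members at 4 h (16.0% of genes with at least 10 counts). The counts were 0 at 8 h (16.3%), 4 at 24 h (19.8%) and 1 at 72 h (16.2%). Both were below both controls in 1, 3, 1 and 4 members in turn (12.1%, 10.7%, 9.52% and 12.6%). Bhlhe40 was above in all 4 late libraries (0.989%). The 2 members with an unadjusted edgeR p under 0.05 were Kdm3a (-0.27 ± 0.10, adjusted p = 0.97), at 227 to 329 CPM against 278 to 437, and Ndufa4l2 (0.44 ± 0.21, adjusted p = 0.97). The WT-H3.3 libraries are again those of the choice. Neither H3.3K27L nor GSK343 had a HIF subunit called, and Hif1a had log2 fold changes of 0.04 ± 0.13 with H3.3K27L and -0.16 ± 0.13 with GSK343.

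In the control line itself no member was called between early (4 and 8 h) and late (24 and 72 h) times on Dox, against 0.0785% of genes, 11 in all, and DESeq2 called none of the members either. The 3 members with an unadjusted p under 0.05, as 1178 of 14012 genes had, were Ndufa4l2, Egln3 and Kdm3a. Ndufa4l2 was at 4.90 to 8.76 CPM in the 4 early WT-H3.3 libraries and 2.89 to 4.01 CPM in the 4 late ones, a log2 fold change of -0.92 ± 0.28 (SE, unadjusted p = 0.0035, adjusted p = 0.26). Egln3 was at 8.39 to 14.2 CPM early and 4.94 to 8.25 CPM late (-0.77 ± 0.31, unadjusted p = 0.0194, adjusted p = 0.47). Kdm3a was at 347 to 437 CPM early and 278 to 330 CPM late (-0.43 ± 0.13, unadjusted p = 0.00439, adjusted p = 0.28). All 3 were lower late, whereas Vegfa and Ddit4 had 0.09 ± 0.33 and 0.14 ± 0.33. The median over members was -0.37, against -0.0056 for all genes. These WT-H3.3 libraries were the control side of the comparison that chose the members, so this test is not independent of the choice.

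**Figure D2:**
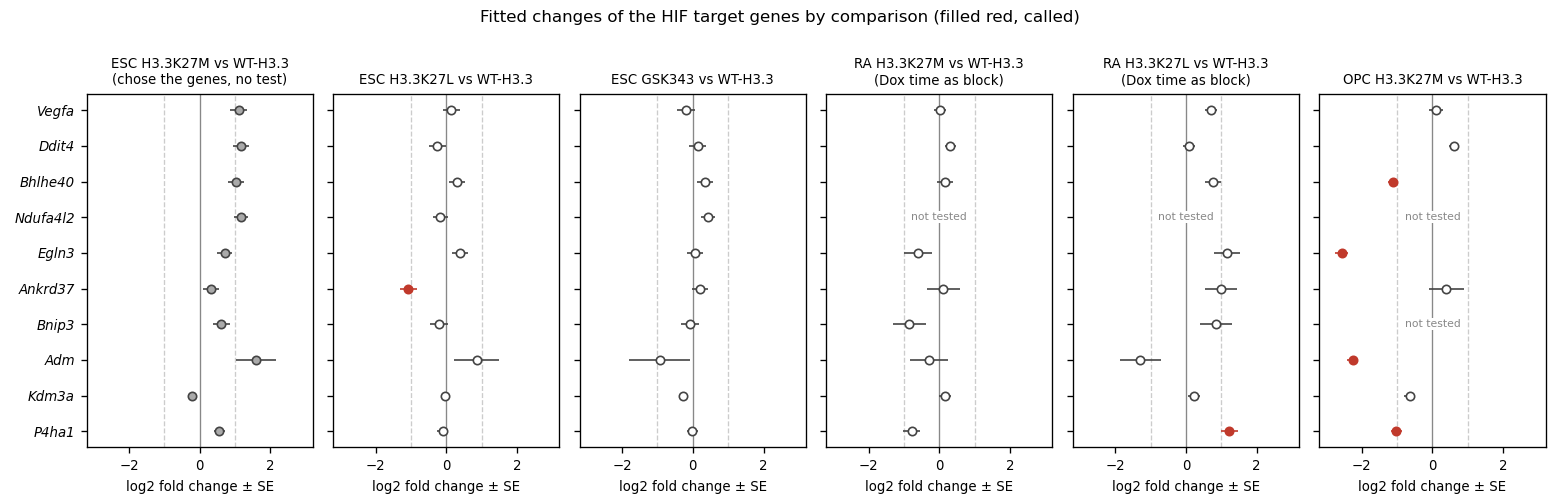
Log2 fold changes of the members in each comparison, with the fitted value as a point and its standard error as a bar. The K27M ESC values chose the members and carry no test, Ankrd37 is from the fits that keep chromosome 8, and the RA comparisons of lines use Dox time as a block. Filled red points passed the test. With H3.3K27L and GSK343 in ESCs none but Ankrd37 with H3.3K27L (-1.07) did, and the values of Egln3 and Adm in OPCs lie at -2.57 and -2.26.

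After RA the set split rather than moving as 1 group. The comparison least touched by the kind of library, as read from Eef1a1, was added after the data were seen. It sets the 24 h RA libraries of WT-H3.3 and H3.3K27L against the 4 ESC libraries of the same lines and time, with line as a term. In it 4 of the 8 members tested were called higher and 2 lower, where 40.8% of 13452 genes were called, 22.7% higher and 18.2% lower. P4ha1, the collagen hydroxylase subunit, was at 220 and 449 CPM after RA against 34.4 to 53.8 CPM in ESCs (2.78 ± 0.27, SE, adjusted p = 4.65e-05). Vegfa was at 55.8 and 87.2 CPM against 13.2 to 21.3 CPM (1.89 ± 0.26, adjusted p = 3.25e-04). Ddit4 was at 103 and 115 CPM against 19.6 to 39.3 CPM (1.68 ± 0.27, adjusted p = 8.05e-04), and Bhlhe40 at 46.9 and 64.0 CPM against 14.2 to 34.2 CPM (1.17 ± 0.26, adjusted p = 0.00507). In bulk RNA, a change in the share of cells that express a gene and a change of RNA per cell cannot be told apart.

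The demethylase Kdm3a and the mitochondrial member Ndufa4l2 went the other way. Kdm3a was at 93.1 and 103 CPM after RA against 278 to 330 CPM in those ESCs (-1.70 ± 0.18, SE, adjusted p = 9.04e-05). Ndufa4l2 was at 0.396 and 0.268 CPM against 2.89 to 3.76 CPM (-3.40 ± 0.56, adjusted p = 9.83e-04). Egln3 (0.35 ± 0.39) and Bnip3 (0.28 ± 0.32) did not pass the test, and Adm was too low to be tested. With all WT-H3.3 libraries of 24 and 72 h (34.4% of 13670 genes called, 19.5% higher and 15.0% lower), the same members other than Bhlhe40 (0.77 ± 0.34, adjusted p = 0.11) were called in the same directions, and Adm was called higher (5.62 ± 1.07, adjusted p = 0.00517). Vegfa there was at the edge (1.02 ± 0.32, adjusted p = 0.037), lost its call without any 1 of 4 of the 6 libraries, and fell to 0.57 without the 24 h RA library. In that comparison Epas1 (2.52 ± 0.44, adjusted p = 0.00349) and Arnt2 (3.21 ± 0.28, adjusted p = 1.81e-04) were higher, and Hif1a was not called (0.36 ± 0.31). The WT-H3.3 ESC libraries used here are also those of the choice.

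Between 24 and 72 h of Dox after RA, with line as a block, 42.1% of genes were called (19.6% higher and 22.5% lower), and of the 8 members tested 3 were called higher and 1 lower. Ddit4 was higher at 72 h in every line, at 174, 249 and 174 CPM against 103, 116 and 115 CPM in the WT, K27M and K27L lines in turn (1.06 ± 0.14, SE, adjusted p = 2.23e-05), and Adm was at 24.6, 8.69 and 9.49 CPM against 1.78, 4.00 and 0.804 CPM (2.71 ± 0.46, adjusted p = 2.16e-04). Bnip3 was at 0, 1.61 and 3.98 CPM against 14.7, 6.69 and 20.9 CPM (-2.55 ± 0.46, adjusted p = 3.35e-04). Egln3 was called higher (1.01 ± 0.31, adjusted p = 0.0119) although its libraries overlapped, and with chromosome 8 kept Ankrd37 was at 6.25, 11.9 and 15.6 CPM against 2.57, 1.53 and 3.75 CPM (2.47 ± 0.35, adjusted p = 6.33e-05). Kdm3a (-0.87 ± 0.14) and Vegfa (-0.43 ± 0.14) passed on p alone and not on fold, as did many genes, since 69.9% had an adjusted p under 0.05. Over the same step Eef1a1 went from 4318 to 4508 CPM to 110 to 136 CPM and the glycolytic enzymes Gapdh and Pgam1 from 885 to 926 to 99.1 to 209 CPM and from 78.2 to 102 to 2.45 to 2.68 CPM, so that the members' changes and the kind of library cannot be told apart. Ddit4 stood at 0.91 and 0.94 without the 24 h or the 72 h H3.3K27M library, below the fold threshold, and Egln3 lost its call without any 1 of the 4 mutant libraries.

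Among the lines after RA, no member was called for H3.3K27M against WT-H3.3. With Dox times pooled no gene was called (0%, with 14 genes at an unadjusted p under 0.05 and no call by DESeq2 among members), and with Dox time as a block 2 genes were (0.0163%), neither of them a member. Vegfa was at 55.3 and 36.4 CPM with H3.3K27M and 55.8 and 32.6 CPM with WT-H3.3 (0.03 ± 0.17, SE, in the blocked fit). Ddit4 was at 116 and 249 against 103 and 174 CPM (0.31 ± 0.17, adjusted p = 0.88). P4ha1 had the lowest p among members (-0.79 ± 0.24, unadjusted p = 0.00708, adjusted p = 0.49), at 84.7 and 122 against 220 and 130 CPM. No HIF subunit was called in the blocked fit, where Epas1 had -1.24 ± 0.22 (adjusted p = 0.098) and Hif1a -0.06 ± 0.18.

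H3.3K27L after RA carried more P4ha1, at 449 and 360 CPM against 220 and 130 CPM in WT-H3.3. It was not called with times pooled (1.24 ± 0.44, SE, 0% of genes called, 185 genes at an unadjusted p under 0.05) and was called with Dox time as a block (1.22 ± 0.24, adjusted p = 0.0117), where 3.64% of genes were called, 1.5% higher and 2.13% lower. Vegfa passed on p in that fit and not on fold, at 87.2 and 56.0 against 55.8 and 32.6 CPM (0.71 ± 0.17, adjusted p = 0.029). Bhlhe40 (0.76 ± 0.23, adjusted p = 0.069) and Egln3 (1.15 ± 0.37, adjusted p = 0.088) missed the threshold. Of the HIF subunits, Epas1 passed on p and not on fold (0.82 ± 0.21, adjusted p = 0.040), and Hif1a passed on neither (-0.10 ± 0.18). Of 28 other non-glycolytic targets, Loxl2 (1.48), P4ha2 (1.07), Plod2 (1.23) and Ndrg1 (1.23) were called higher, the first 3 being enzymes of collagen processing, and Edn1 lower (-1.13). The 6 extraembryonic endoderm markers summed to 1501 to 1585 CPM in these H3.3K27L libraries, 582 to 761 CPM in WT-H3.3 and 333 to 563 CPM in H3.3K27M, and their part in these values was not tested.

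**Figure D3:**
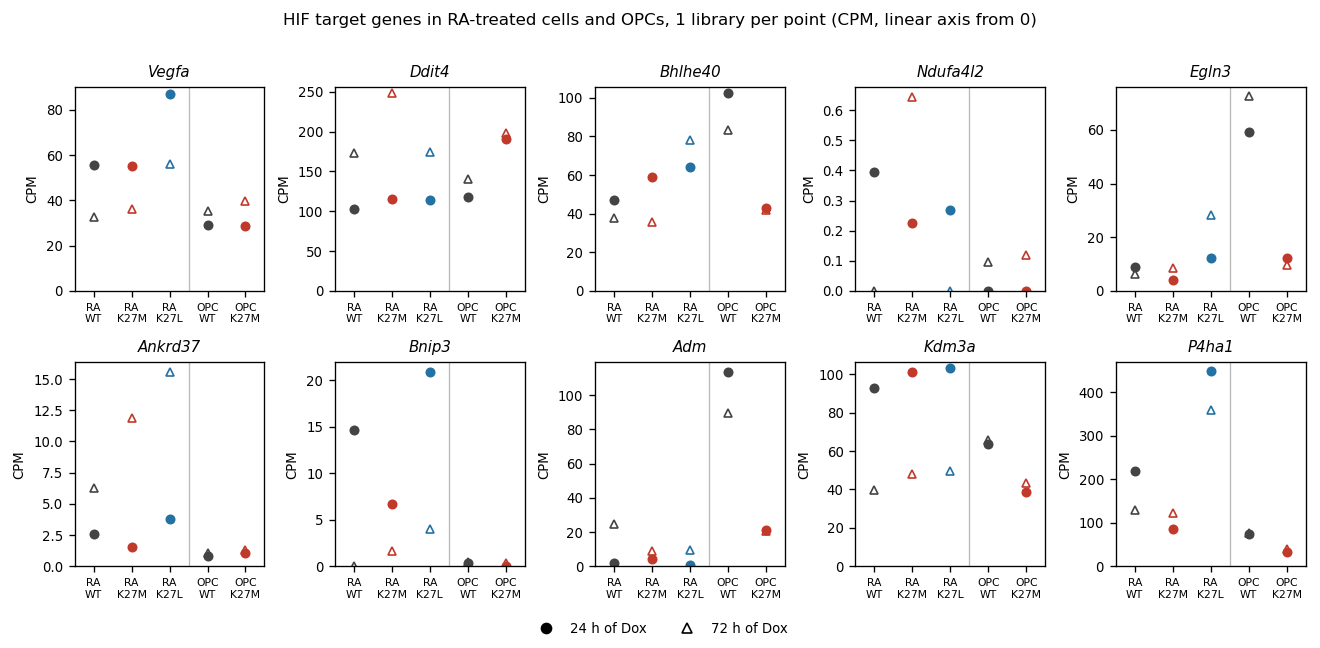
Each panel plots 1 gene in the RA-treated cells and OPCs, with the line on the x axis and CPM on the y axis, and symbols giving 24 or 72 h of Dox. Each point is 1 library. Adm, Egln3, Bhlhe40 and P4ha1 of H3.3K27M OPCs lie below those of WT-H3.3 OPCs, and P4ha1 is highest in H3.3K27L after RA.

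In OPCs 4 of the 7 members tested were lower with H3.3K27M than with WT-H3.3 and none was called higher, against 15.0% of 12467 genes lower and 12.9% higher. Egln3, the HIF hydroxylase, gave 59.0 and 72.5 CPM in the WT-H3.3 libraries of 24 and 72 h but 12.3 and 9.76 CPM in those of H3.3K27M (-2.57 ± 0.19 on the log2 scale, SE, adjusted p = 1.51e-06). Adm was at 114 and 89.6 CPM against 21.5 and 20.6 CPM (-2.26 ± 0.16, adjusted p = 1.26e-06). In both genes the lines differed by more than the times did.

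Bhlhe40 was at 102 and 83.5 CPM in WT-H3.3 OPCs and 42.8 and 41.7 CPM in H3.3K27M OPCs (-1.12 ± 0.15, SE, adjusted p = 9.5e-05), and P4ha1 at 73.9 and 75.8 CPM against 32.7 and 40.2 CPM (-1.02 ± 0.16, adjusted p = 2.74e-04). Both passed the fold threshold narrowly: Bhlhe40 came to -0.99 without the 24 h WT-H3.3 library and P4ha1 to -0.86 without the 24 h H3.3K27M library. Kdm3a passed on p alone (as 51.5% of genes did, called or not), at 63.5 and 66.0 CPM against 38.7 and 43.4 CPM (-0.64 ± 0.15, adjusted p = 0.00348). Ddit4 was the member that went up on p alone, at 117 and 141 CPM against 191 and 198 CPM (0.60 ± 0.14, adjusted p = 0.00377). Vegfa did not separate the lines, at 29.1 and 35.3 CPM against 28.8 and 39.9 CPM (0.11 ± 0.20, adjusted p = 0.66). Ndufa4l2 had 1 count in each line and Bnip3 10 counts against 3, and neither could be tested.

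The lists around the members are read against the same background of 15.0% of genes lower and 12.9% higher. Epas1, the HIF-2α gene, was at 3.71 CPM in H3.3K27M OPCs and 30.8 CPM in WT-H3.3 OPCs (-3.03 ± 0.29, SE, adjusted p = 9.69e-06), whereas Hif1a was at 185 and 196 CPM (-0.06 ± 0.13). Cited2, which competes with HIF for its coactivators, was at 37.5 CPM against 151 CPM (adjusted p = 5.05e-06), and none of 7 sensing and degradation genes was called. Of 29 other non-glycolytic targets 9 were lower and 1 higher, led by Loxl2 (-5.22), Edn1 (-5.62), P4ha2 (-4.81), Bhlhe41 (-3.52) and Angptl4 (-2.81). Of 20 glycolytic genes 3 were lower (Pfkp, Slc2a3 and Pfkfb3) and 1 higher (Eno1). Of 12 stress-response genes 5 were lower and 3 higher. The 2 OPC lines also differed in cell type markers. The 5 fibroblast markers summed to 425 to 476 CPM in WT-H3.3 and 6.14 to 11.5 CPM in H3.3K27M with none at 0 in either line, and the 5 endothelial markers to 17.03 to 26.2 CPM with Tie1 at 0 and 0.72 to 1.87 CPM with Tek and Tie1 at 0. The 6 oligodendrocyte progenitor markers summed to 479 to 505 CPM and 1617 to 1742 CPM, where Olig1 and Olig2 made up most of the sum. Cspg4 (7.91 to 9.62 CPM in WT-H3.3 against 69.1 to 90.1 CPM) and Nkx2-2 (34.3 to 35.4 against 72.9 to 109 CPM) were also higher in H3.3K27M. Pdgfra (14.4 to 21.6 CPM in WT-H3.3 against 0.533 to 0.723 CPM) and Sox10 (1.78 to 3.14 against 0.133 to 0.482 CPM) were lower. The 5 neuron markers summed to 710 to 711 CPM and 1516 to 1566 CPM through Map2 (527 to 536 against 1476 to 1535 CPM), while Stmn2 (105 to 147 against 0.482 to 0.80 CPM), Dcx and Elavl3 were lower in the H3.3K27M libraries. The 6 extraembryonic endoderm markers summed to 86.1 to 105 CPM with none at 0 and 19.3 to 22.5 CPM with Afp at 0. The 4 astrocyte markers summed to 756 to 761 CPM in WT-H3.3 and 819 to 1082 CPM in H3.3K27M. Slc1a3 made up most of that sum (688 to 706 against 811 to 1073 CPM). Gfap (22.2 to 31.0 against 0 to 0.267 CPM), Aqp4 and Aldh1l1 were lower in H3.3K27M. The part of these differences in the members' values was not tested.

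The effect of H3.3K27M on 3 members differed between OPCs and RA-treated cells when the difference itself was fitted, with Dox time as a term in each stage (18.0% of 14257 genes called, 6.73% higher and 11.2% lower, in a contrast chosen after the data were seen). It was lower in OPCs by a log2 difference of -1.28 ± 0.24 (SE, adjusted p = 5.24e-04) for Bhlhe40, -1.93 ± 0.41 (adjusted p = 0.00185) for Egln3 and -1.81 ± 0.46 (adjusted p = 0.00666) for Adm, and DESeq2 called 3 members too. P4ha1 did not differ beyond its error (-0.23 ± 0.29), nor did Vegfa (0.06 ± 0.24).

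Across stages of the WT-H3.3 line at 24 and 72 h, the order of levels differed by gene. From ESCs to OPCs 68.6% of 14870 genes were called, 31.2% higher and 37.4% lower, and of the 9 members tested 4 were called higher and 3 lower. Adm rose most, from 10 counts in 4 ESC libraries to 2348 in 2 OPC libraries, a ratio of CPM of 447 (95% exact interval 243 to 934, counting error only), and after RA its ratio to ESCs was 38.3 (19.5 to 83.6). Egln3 was at 4.94 to 8.25 CPM in ESCs, 8.91 and 6.25 CPM after RA and 59.0 and 72.5 CPM in OPCs (3.33 ± 0.20, SE, OPC against ESC, adjusted p = 1e-08). ESCs and RA-treated cells overlapped in Egln3, and OPCs stood apart.

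Bhlhe40 rose from 14.2 to 29.7 CPM in ESCs to 102 and 83.5 CPM in OPCs (2.03 ± 0.24, SE, adjusted p = 4.82e-06), with RA-treated cells between at 46.9 and 37.5 CPM. Ddit4 was at 32.9 to 44.7 CPM, 103 and 174 CPM, and 117 and 141 CPM in turn, and the last 2 stages overlapped (1.85 ± 0.18, OPC against ESC, adjusted p = 7.19e-07). P4ha1 was highest after RA, at 220 and 130 CPM, against 73.9 and 75.8 CPM in OPCs and 34.4 to 53.8 CPM in ESCs. Vegfa and P4ha1 passed on p alone from ESCs to OPCs (0.69 ± 0.21 and 0.93 ± 0.19), where 82.2% of genes had an adjusted p under 0.05.

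Kdm3a was lower in OPCs, at 63.5 and 66.0 CPM against 278 to 330 CPM (-2.11 ± 0.18, SE, adjusted p = 2.59e-07). Bnip3 was at 0.404 and 0.476 CPM in OPCs against 8.66 to 16.0 CPM in ESCs, a ratio of summed CPM of 0.0371 (0.0177 to 0.0688). Ndufa4l2 gave 1 count in OPCs against 149 in ESCs, a ratio of 0.0128 (0.000321 to 0.0723). With chromosome 8 kept Ankrd37 was also lower (-3.16 ± 0.39, adjusted p = 7.3e-06). Bnip3 was at 14.7 CPM in the 24 h RA library and at 0 of 2239137 counts in the 72 h one, which allows up to 1.34 CPM, so its low level coincides with the libraries in which Eef1a1 is also low, and the step to OPCs cannot be told apart from the kind of library.

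**Figure D4:**
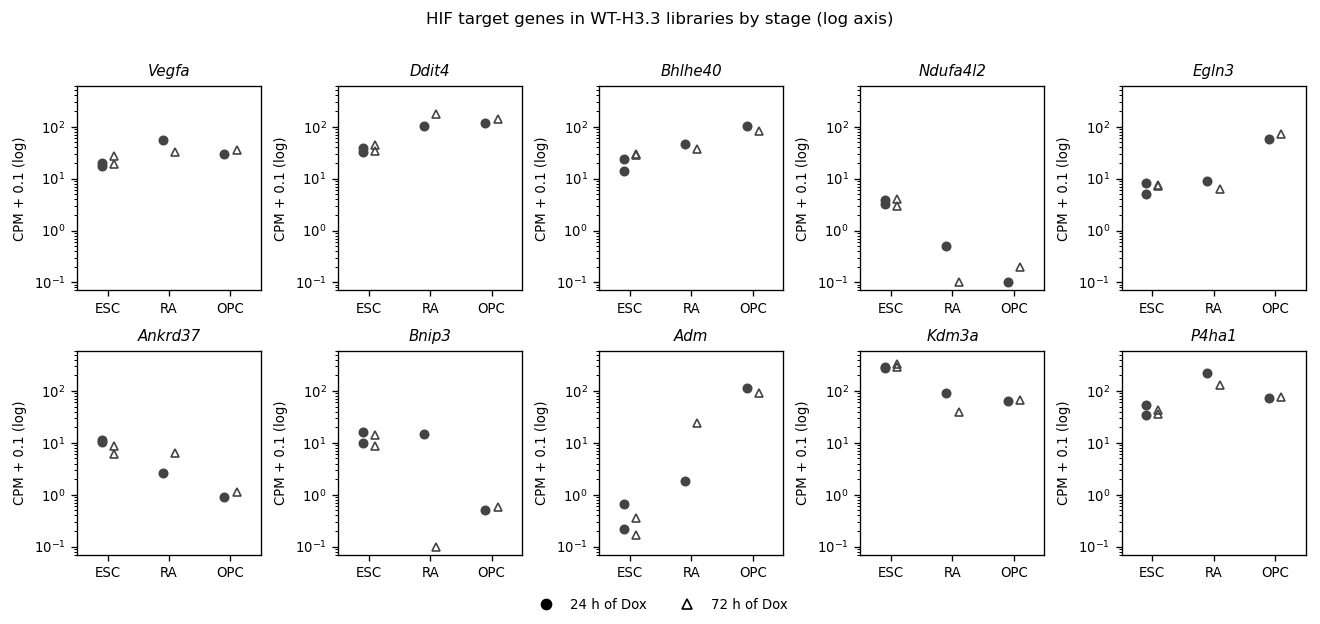
Each panel plots 1 gene in the WT-H3.3 line by stage, with CPM plus 0.1 on a log y axis. Filled circles are libraries at 24 h of Dox and open triangles those at 72 h. Adm and Egln3 are highest in OPCs, Kdm3a and Ndufa4l2 are highest in ESCs, and Bnip3 falls to the floor of the axis in the 72 h RA library.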

How the data were processed

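Gene expression was measured by single-end RNA-seq of 42 libraries. The authors mapped reads to mm9 with STAR 2.7.1, and what they deposited is a table of raw counts for each gene, not normalized. Of 55471 gene identifiers, 32589 were matched to a symbol, and these held 98.2% of counts. Chromosome 8 (2532 genes, 5.85% of counts) was left out of the fits, as in the study. Totals ranged from 68378 to 22269533 counts, and intervals cover counting error only.

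Each comparison was fitted on all genes in edgeR 4.0.16 (R 4.3.3) by quasi-likelihood, after TMM scaling and filterByExpr, with Benjamini-Hochberg adjustment over the genes tested. Called genes had an adjusted p under 0.05 together with a change of more than 2-fold in either direction. The 32 ESC libraries shared 1 model with a mean for each line or treatment and time. RA-treated cells and OPCs had models of their own. The SE is the log2 fold change divided by the square root of F. The script was tested on simulated data.

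The members and lists were chosen with earlier results of these data known. The text names the 10 members, the HIF subunits, and up to 5 genes of lowest adjusted p of each other list, and the 10 genes most like the members by Pearson correlation of log2(CPM + 0.5). Alternatives were DESeq2 1.42.0, other size factors, no filter, no fold threshold, replicate or Dox time blocks and leaving out single libraries. Replicates were grown weeks apart in ESCs. Replicate numbers paired WT-H3.3 with H3.3K27M (correlations of replicate differences 0.572 to 0.684), but not with H3.3K27L (-0.679 to 0.233) or GSK343 (-0.388 to 0.585). No library was a copy of another (chi-square per gene at least 1.85 over 861 pairs). Promoter sequences are from RefSeq (GRCm38.p6).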

Additional observations from a re-analysis of the deposited data

Results flagged for a closer look

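Among 40 groups of member values tested for 1 library far from the rest, 3 were found, and chance gives about 1 in 20. Ddit4 in the second GSK343 library at 24 h was at 71.4 CPM, and the next highest of the 8 GSK343 libraries was at 48.0 CPM. P4ha1 in that same library was at 62.0 CPM, next to 43.6 CPM. Bhlhe40 in the first WT-H3.3 ESC library at 24 h was at 14.2 CPM, and the next lowest control was at 23.6 CPM.

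The effect of H3.3K27M differed between OPCs and RA-treated cells for Bhlhe40 (log2 difference -1.28), Egln3 (-1.93) and Adm (-1.81), each lower in OPCs by the edgeR test of the difference given above. The RA libraries of 72 h and the OPC libraries share a low level of Eef1a1 that the RA libraries of 24 h do not have, and its part in these differences was not tested.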

How the results depend on the processing

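The counts of members called were within 1.5 times the reported count under every alternative run but 3 and, among the fits that leave out 1 library, but 2, and no member changed direction while called. With chromosome 8 kept, 1 member (Ankrd37) was called for H3.3K27L in ESCs in place of 0. Without a filter on low counts 2 members were called between RA at 72 and 24 h in place of 4, Ddit4 (0.95) and Egln3 (0.90) falling below the fold threshold. Dox time as a block gave 1 (P4ha1) in place of 0 for H3.3K27L after RA. Leaving out 1 library at a time gave 2 to 4 members for RA at 72 against 24 h (2 without the 24 h or the 72 h H3.3K27M library), 3 to 4 for OPC H3.3K27M, 5 to 6 for RA against ESC, 7 to 8 for OPC against ESC, 0 to 0 in the other comparisons, and a median of 0.75 to 1.17 for H3.3K27M in ESCs. The replicate block changed no member's call in ESCs, giving 0 for H3.3K27L and 0 for GSK343. For OPC H3.3K27M the block was Dox time, and the count stayed at 4. Crossing the H3.3K27L numbers, whose replicate differences run opposite to the controls at 4, 8 and 24 h, also gave 0 members. It called 615 genes, against 546 with the numbers as labelled. Over all genes, H3.3K27L in ESCs called 481 genes, 750 without the filter and 1141 without the fold threshold. GSK343 called 0, and 26 without the filter. WT-H3.3 late against early called 11, 18 with total counts alone or without the fold threshold, 71 without the filter, 17 with the replicate block and 0 when fitted on its own libraries. RA at 72 against 24 h called 4924, and 8170 without the fold threshold. RA H3.3K27M called 0, and 2 with the Dox time block. RA H3.3K27L called 0, 445 with the block, 7 without the filter and 5 by DESeq2. OPC H3.3K27M called 3482, and 6423 without the fold threshold. Depth limits Adm in ESCs and Ndufa4l2 and Bnip3 after differentiation, where a few counts decide a value, and H3.3K27L at 72 h.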
